A study of Mus musculus with 6 samples.

Results

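The SLC25 genes encode the mitochondrial carriers, and their transcripts were followed in mouse bone marrow-derived macrophages that had spent 5 days in an osteoclast-inducing medium, in the presence or absence of Visomitin. The members were taken by name and level: protein-coding genes whose symbol is Slc25a followed by a number, together with Ucp2, listed at 1 TPM or more in 3 or more of the 6 libraries. Of 48 such genes in the table, 37 reached that level and 11 did not, against 11753 of 57180 rows in the whole table. The whole table also holds genes that are not protein-coding, so these shares are not of like sets. Of the 37 members, Slc25a53 reached 1 TPM in 5 libraries and the other 36 genes in all 6. Just inside the limit, Slc25a53 had 1.88 to 3.49 TPM with Visomitin and 0.62 to 3.40 TPM in control. Just outside it, Slc25a47 had 0.46 to 0.89 TPM with Visomitin and 0.50 to 0.78 TPM in control.

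Mitochondrial carriers are small proteins of the inner mitochondrial membrane, built from repeats of a similar fold, that exchange or import nucleotides, phosphate, organic acids, amino acids, cofactors and metal ions. They join the cytosol to the tricarboxylic acid cycle, oxidative phosphorylation, heme synthesis and the amino acid pathways inside the organelle. Osteoclasts are known for dense mitochondria, and the macrophages from which they form express the uncoupling protein homologue Ucp2 at high levels.

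The Visomitin group consisted of 3 libraries of wild-type cells given Visomitin during 5 days of osteoclast-inducing culture, and the control group of 3 libraries of wild-type cells from the same culture lacking it. Visomitin, also called SkQ1, is a plastoquinone antioxidant linked to a cation that carries it into mitochondria. The sources used here give no dose, strain, sex or age of the mice, and do not say whether separate mice or cultures lie behind the libraries; p-values therefore cover the spread among these 6 libraries alone, and that spread may be technical. Levels are in TPM, a length-corrected share of a library's transcripts in parts of 1000000, so that different genes can be compared. TPM keeps no depth, and with 3 libraries per group the precision is limited.

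All 10 macrophage markers on the list reached 1 TPM, as did all 10 osteoclast markers, while 0 of 7 erythroid markers did. The summed osteoclast markers were at 2969 to 3575 TPM with Visomitin and 11212 to 12156 TPM in control. The summed macrophage markers were at 4990 to 6268 TPM with Visomitin and 5303 to 5499 TPM in control. Of the 10 macrophage markers, 3 rose, Mrc1, Mertk and Cx3cr1 (adjusted p under 0.05 in limma), and 7 did not pass. Differences were above 0 for 8 macrophage markers and below 0 for 2, Cd68 and Fcgr1. Cd68 was at 1500.6 to 1712 TPM with Visomitin and 1814.5 to 1928.4 TPM in control, without overlap. The dendritic markers summed to 8.16 to 11.9 TPM with Visomitin and 24.5 to 30.3 TPM in control, without overlap. Most of this sum was Itgax, which fell, at 6.88 to 10.01 TPM with Visomitin and 22.83 to 28.5 TPM in control. Zbtb46, the other dendritic marker tested, was at 1.26 to 1.81 TPM with Visomitin and 1.48 to 1.91 TPM in control and did not pass. Of the others, 2 of 7 dendritic, 1 of 8 neutrophil, 1 of 8 lymphoid and 6 of 8 stromal markers reached 1 TPM. Stromal markers summed to 76.5 to 158 TPM with Visomitin and 104 to 306 TPM in control, and Cd79a, Cd3e, Ly6g, Hba-a1 and Bglap were listed at 0 in all libraries. Whether any marker list had a part in the differences between carriers was not tested, and in bulk RNA fewer cells of a type and less of a transcript per cell cannot be told apart. Visomitin 1 stood apart by its scale: its median-ratio factor, which sets the typical gene level, was 0.911, against 1.008 and 1.042 in Visomitin 2 and 3 and 1.004 to 1.028 in the controls.

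Few carriers differed between the groups, and more of these were lower than higher with Visomitin. Slc25a13, which encodes citrin of the malate-aspartate shuttle, fell 1.60-fold, Slc25a43, a carrier without a known substrate, fell 1.49-fold, and both abundant adenine nucleotide translocases, Slc25a4 and Slc25a5, fell 1.29-fold and 1.25-fold. Slc25a23, a calcium-regulated carrier of ATP-magnesium and phosphate, rose 1.58-fold, and the other 32 members did not pass. Folds and differences are on the log2(TPM + 1) scale, Visomitin minus control, on which the change of scarce genes appears too small, and "rose" or "fell" means an adjusted p under 0.05 in limma over all 11753 genes tested. The 1 member that rose and the 4 that fell stand beside 2.08% of all genes tested that rose and 5.03% that fell, or 7.1% in either direction. Over all genes tested 244 rose and 591 fell, and after median-ratio scaling 481 rose and 689 fell. The median difference was -0.05 over the members and -0.03 over all genes tested. Differences ran below 0 for 20 members and above 0 for 17, and for 6550 and 5203 of all genes tested. Of the 37 members, 13 had an unadjusted p under 0.05 in limma, as did 2862 of the 11753 genes tested. The values of the groups did not overlap for 9 members lower and 5 members higher with Visomitin, against 18.4% and 11.9% of all genes tested.

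**Figure D1:**
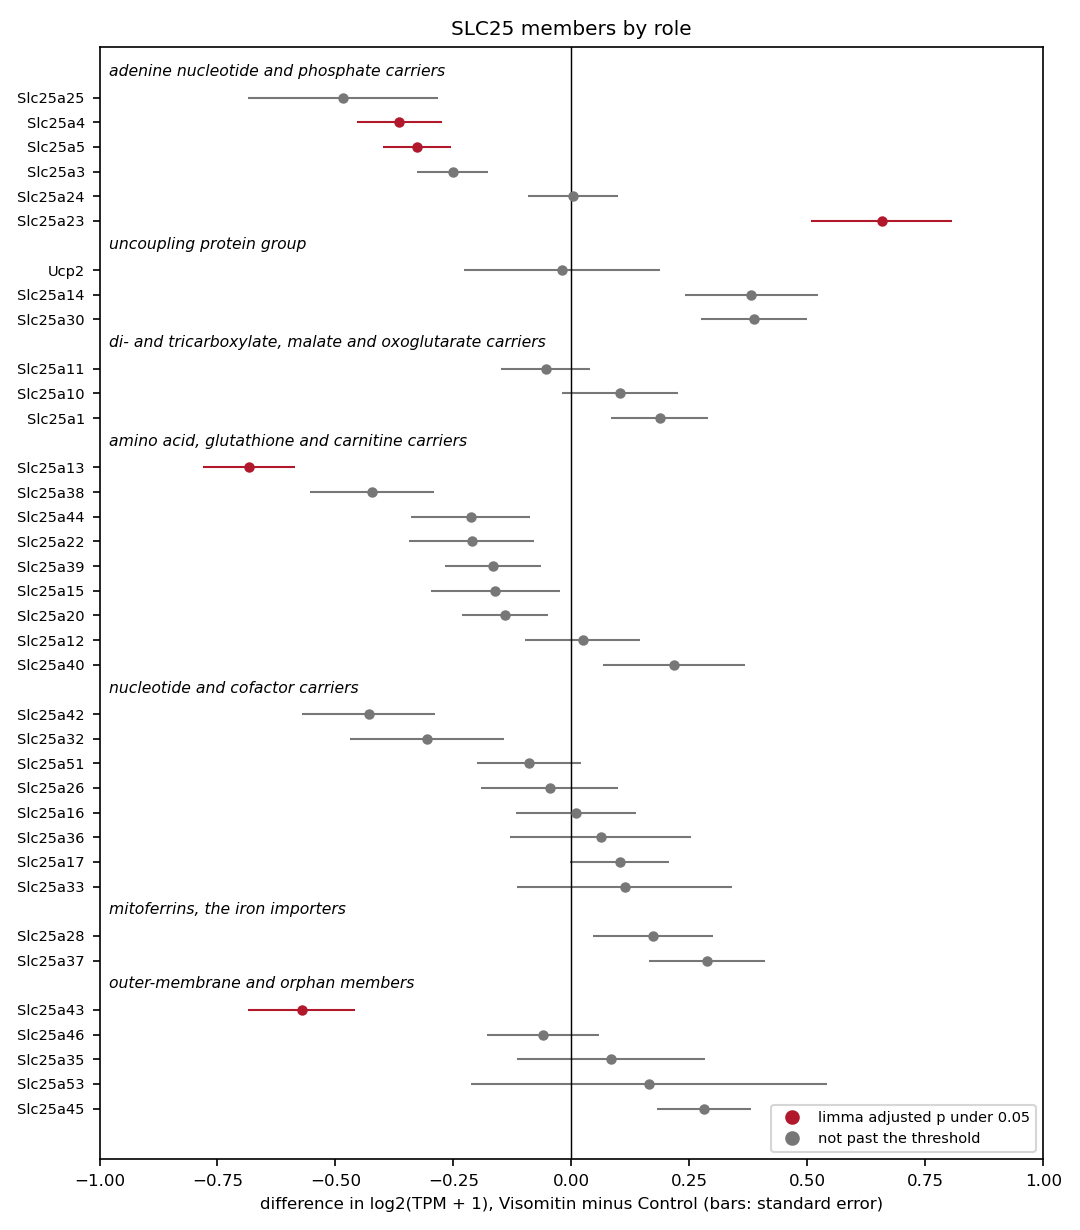
Difference in log2(TPM + 1), Visomitin minus control, for 36 of the members, grouped by role, with bars for the standard error (3 libraries per group). The 4 members that fell and the 1 that rose in limma are in red; the remaining 31 are in grey and lie on both sides of 0.

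The carriers were expressed at very unequal levels. Slc25a5, Ucp2, Slc25a3 and Slc25a4 together made up 70.9% of the members' summed TPM, 8 members averaged at least 50 TPM over all libraries and 14 averaged under 10 TPM. The members summed to 2507, 3114 and 3183 TPM in Visomitin 1, 2 and 3, against 3268, 3262 and 3238 TPM in control 1, 2 and 3. Leaving out Ucp2, the sum was 2049, 2288 and 2363 TPM with Visomitin and 2530, 2602 and 2574 TPM in control, so that every Visomitin library lay below every control. Slc25a5, Slc25a3 and Slc25a4 make up most of this sum, and each was lower in every Visomitin library. The sum therefore does not describe the scarcer members, and 17 of the 37 members had a difference above 0. After median-ratio scaling this sum was 2250, 2270 and 2267 with Visomitin and 2460, 2592 and 2543 in control, which places the 3 Visomitin libraries close together. Visomitin 1 was the lowest Visomitin library for 31 of the 37 members and for 63.9% of all genes tested. The SD of log2 values within a group was larger with Visomitin than in control for 28 of the members and for 60.3% of all genes tested.

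The promoters of the 5 members that passed are shown so that the letters near the starts of genes that rose or fell can be compared. Each line gives the RefSeq window on build GRCm38.p6 from 250 bases before to 50 after the annotated start, 5′ to 3′ on the gene's strand, in lower case, and capitals mark the letters of a searched motif. The windows are chr6:6217124-6217423 (minus strand) for Slc25a13, chrX:36743382-36743681 (plus) for Slc25a43, chrX:36795347-36795646 (plus) for Slc25a5, chr8:46211013-46211312 (minus) for Slc25a4 and chr17:57059814-57060113 (minus) for Slc25a23. Where RefSeq lists several starts, the one listed first was used.
Slc25a13: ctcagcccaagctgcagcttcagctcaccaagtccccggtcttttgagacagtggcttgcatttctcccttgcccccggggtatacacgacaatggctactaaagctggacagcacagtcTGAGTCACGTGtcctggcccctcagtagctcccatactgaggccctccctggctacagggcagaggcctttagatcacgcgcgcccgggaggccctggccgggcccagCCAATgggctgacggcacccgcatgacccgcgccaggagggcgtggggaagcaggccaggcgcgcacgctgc
Slc25a43: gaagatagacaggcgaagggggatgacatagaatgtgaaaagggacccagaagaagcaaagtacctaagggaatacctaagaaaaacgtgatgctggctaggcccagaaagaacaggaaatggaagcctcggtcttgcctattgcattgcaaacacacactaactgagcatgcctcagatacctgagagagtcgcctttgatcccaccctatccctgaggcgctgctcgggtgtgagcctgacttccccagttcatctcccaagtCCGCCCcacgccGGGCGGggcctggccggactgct
Slc25a5: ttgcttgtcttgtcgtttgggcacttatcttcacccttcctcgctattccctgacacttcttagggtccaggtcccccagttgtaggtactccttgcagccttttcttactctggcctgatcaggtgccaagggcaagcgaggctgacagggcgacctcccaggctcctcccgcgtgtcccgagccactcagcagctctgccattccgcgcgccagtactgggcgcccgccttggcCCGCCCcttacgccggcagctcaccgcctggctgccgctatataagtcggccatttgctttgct
Slc25a4: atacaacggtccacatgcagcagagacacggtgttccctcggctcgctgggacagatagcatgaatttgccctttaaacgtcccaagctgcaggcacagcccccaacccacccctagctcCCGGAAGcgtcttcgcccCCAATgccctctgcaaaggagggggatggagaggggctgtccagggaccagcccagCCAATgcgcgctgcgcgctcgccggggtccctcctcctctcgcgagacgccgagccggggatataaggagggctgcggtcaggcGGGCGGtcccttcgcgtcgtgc
Slc25a23: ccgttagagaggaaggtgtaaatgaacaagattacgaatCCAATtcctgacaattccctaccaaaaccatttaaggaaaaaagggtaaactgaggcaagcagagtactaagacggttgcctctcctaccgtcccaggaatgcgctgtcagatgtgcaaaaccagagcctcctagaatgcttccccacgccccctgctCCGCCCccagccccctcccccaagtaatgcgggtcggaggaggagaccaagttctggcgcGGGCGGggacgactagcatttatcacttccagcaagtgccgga

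The motifs were searched on both strands: AAGGTCA of estrogen-related receptors, CCGGAAG of ETS factors, GGGCGG of SP and KLF factors, CCAAT of NF-Y, TGATGNAA of ATF4, TGACGTCA of CREB, TGANTCA of AP-1, TTCNNNGAA of STAT factors and CACGTG of E-box factors. The Slc25a13 window holds a TGANTCA match that overlaps a CACGTG match by 2 bases, and a CCAAT match nearer the start; TGANTCA occurs in 4.85% and CACGTG in 10.6% of the windows of genes tested, and in 7.93% and 7.24% of all 27025 promoters. GGGCGG was found in the windows of Slc25a43, Slc25a5, Slc25a4 and Slc25a23 and not in that of Slc25a13, and in 35.9% of all promoters. Of the 29 members with a window in the table, 27 hold GGGCGG, against 66.1% of the 8847 genes tested that have a window. The median GC content was 61.0% over member windows and 52.7% over all promoters. It was not computed over the genes tested, so these medians do not set the members apart from other expressed genes. TTCNNNGAA was found in 1 of the 29 member windows, that of Slc25a36, and in 6.74% of the windows of genes tested and 8.47% of all promoters. TGATGNAA and AAGGTCA were found in 0 of the 29, against 2.26% and 3.09% of the windows of genes tested and 4.06% and 4.66% of all promoters, which says only that these letters are not in these windows. Slc25a43 and Slc25a5 are neighbours on the X chromosome, with 51665 bases between their windows, and both fell.

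Of 6 energy carriers tested, Slc25a4 and Slc25a5 fell, Slc25a23 rose and Slc25a3, Slc25a24 and Slc25a25 did not pass. Among all genes tested 5.03% fell and 2.08% rose. The median difference was -0.29 over these carriers and -0.03 over all genes tested. All 3 calls were missed in the fits without Visomitin 2 and without each control library. Slc25a4 encodes the adenine nucleotide translocase of heart and muscle, and Slc25a5 that of dividing cells; both exchange matrix ATP for cytosolic ADP.

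Slc25a5 (ENSMUSG00000016319), the most abundant member, had 639.8, 698.6 and 707 TPM in Visomitin 1, 2 and 3, against 842, 861 and 862 TPM in control 1, 2 and 3. The 3 Visomitin libraries lie below all controls and the controls lie close together. Its mean was 682 ± 36.6 TPM with Visomitin and 855 ± 11.5 TPM in control (SD, n = 3 each; difference -0.33, SE 0.07, limma adjusted p = 0.034). Slc25a4 (ENSMUSG00000031633) had 181, 191 and 216 TPM with Visomitin, against 248, 268 and 242 TPM in control. Its groups do not overlap either, with means of 196 ± 17.8 TPM with Visomitin and 252 ± 13.5 TPM in control (SD, n = 3 each; difference -0.37, SE 0.09, limma adjusted p = 0.048). Both calls lie near the threshold. Slc25a5 kept its call without Visomitin 1 (adjusted p = 0.020) and missed it without each other library (0.056 to 0.12), and Slc25a4 kept its call without Visomitin 3 (0.037) and missed it without each other library (0.062 to 0.15), in fits that rest on 5 libraries. Slc25a5 has 2 processed copies in the annotation that share at least 50% of their 31-base words with it, and both were listed at 0 in all libraries.

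The ratio between the translocases did not differ beyond the spread of the libraries. Slc25a4 made up 22.1%, 21.5% and 23.4% of their summed TPM in Visomitin 1, 2 and 3 and 22.7%, 23.7% and 21.9% in control 1, 2 and 3, and the groups overlap (exact two-sided permutation p = 0.6 for the log2 ratio, and 0.72 adjusted over the 6 pairs of related carriers compared).

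Slc25a3, which imports the phosphate used by ATP synthase, had 439, 472 and 483 TPM with Visomitin, against 528, 571 and 562 TPM in control. It lay lower in every Visomitin library and missed the threshold (difference -0.25, 95% interval -0.42 to -0.08, limma adjusted p = 0.086; 0.069 to 0.24 over the alternatives).

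Slc25a23 (ENSMUSG00000046329) is 1 of 3 tested carriers that exchange ATP-magnesium for phosphate under control of calcium, beside Slc25a24 and Slc25a25. It had 7.02, 9.34 and 9.84 TPM in Visomitin 1, 2 and 3, against 5.55, 4.94 and 4.89 TPM in control 1, 2 and 3. The lowest Visomitin library lies above the highest control, and the Visomitin libraries spread more widely, with means of 8.73 ± 1.505 TPM with Visomitin and 5.13 ± 0.37 TPM in control (SD, n = 3 each; difference 0.66, SE 0.15, limma adjusted p = 0.037). The call held without Visomitin 1 (difference 0.79, adjusted p = 0.016) and was missed without each other library (adjusted p of 0.086 to 0.14). Slc25a24 had 28.7, 30.8 and 30.97 TPM with Visomitin and 32.5, 29.5 and 28.4 TPM in control, a difference near 0 (95% interval -0.21 to 0.22). Slc25a25 pointed the other way from Slc25a23, at 5.51, 7.22 and 9.52 TPM with Visomitin and 8.48, 11.3 and 12.3 TPM in control, with overlapping groups (difference -0.48, SE 0.20, limma adjusted p = 0.18). An exon of Slc25a25 overlaps the opposite-strand gene Naif1, listed at 3.33 to 4.12 TPM with Visomitin and 3.95 to 4.54 TPM in control; the libraries were stranded, and the sources used here do not say whether counting used the strand. As a share of the sum with Slc25a24, Slc25a25 was at 16.1%, 19.0% and 23.5% with Visomitin and 20.7%, 27.7% and 30.2% in control, and the groups overlap (exact two-sided permutation p = 0.2, and 0.3 adjusted over the 6 pairs).

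**Figure D2:**
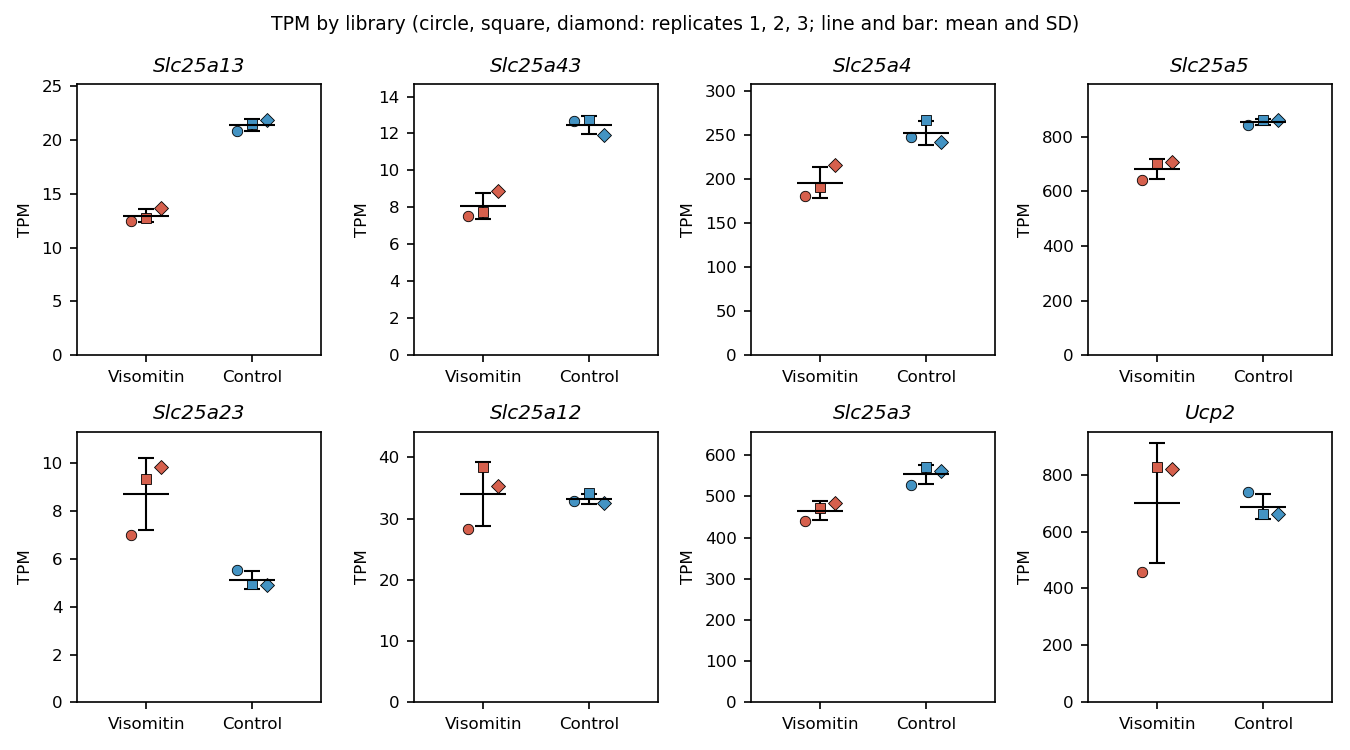
TPM of 8 carriers in each library, Visomitin left and control right, with the mean and SD of 3 libraries. The groups are apart for Slc25a13, Slc25a43, Slc25a4, Slc25a5, Slc25a23 and Slc25a3 and overlap for Slc25a12 and Ucp2, where Visomitin 1 (circle) is the lowest library.

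Members of the uncoupling group did not pass. Ucp2, whose product moves organic acids out of mitochondria and is abundant in macrophages, was the member with the second highest level. It had 458, 826 and 819.9 TPM in Visomitin 1, 2 and 3, against 738, 661 and 663 TPM in control 1, 2 and 3, so that Visomitin 1 was the lowest of all libraries and the other Visomitin libraries the highest. The mean was 701 ± 211 TPM with Visomitin and 687 ± 44.0 TPM in control (SD, n = 3 each; difference -0.02, 95% interval -0.50 to 0.46, limma adjusted p = 0.97). Without Visomitin 1 the difference was 0.26 (limma adjusted p = 0.061), and without Visomitin 2 or Visomitin 3 it was -0.16 (0.74 and 0.71). After median-ratio scaling Ucp2 in Visomitin 1 was still the lowest, at 503, against 819.7 and 787 in Visomitin 2 and 3. An exon of Ucp2 overlaps the opposite-strand gene Dnajb13, listed at no more than 1.99 TPM.

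The uncoupling protein relatives Slc25a30 and Slc25a14 were both higher in every Visomitin library than in any control, without passing the test. Among all genes tested 11.9% were higher in this way and 18.4% lower, so such a separation is common in these data. Slc25a30 had 17.7, 20.5 and 19.5 TPM with Visomitin, against 15.9, 14.2 and 13.3 TPM in control (difference 0.39, SE 0.11, limma adjusted p = 0.078). It passed in 1 of the 15 alternatives, median-ratio scaling (0.43, limma adjusted p = 0.029), and in the others its adjusted p was 0.057 to 0.24. With that scaling 481 of all genes tested rose, against 244 without it. Slc25a14 had 5.44, 6.96 and 5.86 TPM with Visomitin, against 4.31, 4.91 and 4.07 TPM in control (difference 0.38, SE 0.14, limma adjusted p = 0.14).

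Of the malate-aspartate carriers, citrin fell and its close relative did not pass. Slc25a13 and Slc25a12 encode citrin and aralar, which are calcium-regulated and bring glutamate and a proton into the matrix in exchange for aspartate; Slc25a11, the oxoglutarate-malate carrier, completes the shuttle that carries reducing equivalents of cytosolic NADH inward. Slc25a13 (ENSMUSG00000015112) had 12.5, 12.7 and 13.7 TPM in Visomitin 1, 2 and 3, against 20.8, 21.5 and 21.9 TPM in control 1, 2 and 3. The libraries of each group lie close together and the groups lie well apart, with means of 13.0 ± 0.62 TPM with Visomitin and 21.4 ± 0.53 TPM in control (SD, n = 3 each; difference -0.68, SE 0.10, limma adjusted p = 0.0058). The summed osteoclast markers, given above, were also lower in all 3 Visomitin libraries, and their part in this difference was not tested. Slc25a13 is the member with the lowest p-value, and it passed under all 15 alternatives, with differences from -0.72 to -0.56 and adjusted p of 0.0038 to 0.032.

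Slc25a12 had 28.3, 38.4 and 35.4 TPM with Visomitin, against 32.9, 34.1 and 32.6 TPM in control. The control libraries lie inside the range of the Visomitin libraries (difference 0.02, 95% interval -0.25 to 0.30, limma adjusted p = 0.93). The share of Slc25a13 in the sum of the pair was 30.7%, 24.9% and 27.9% in Visomitin 1, 2 and 3, against 38.8%, 38.7% and 40.1% in control 1, 2 and 3. Every Visomitin library lay below every control (27.8% ± 2.89 with Visomitin and 39.2% ± 0.81 in control; SD, n = 3 each). For the log2 ratio, exact permutation (two-sided) gave p = 0.1, below which 3 against 3 libraries cannot go, and p = 0.3 adjusted over the 6 pairs. Slc25a11 had 107, 122 and 133 TPM with Visomitin and 122, 125 and 127 TPM in control, with overlapping groups (difference -0.05, 95% interval -0.27 to 0.16). Its exons overlap Rnf167 on the opposite strand, which was listed at 25.8 to 28.7 TPM with Visomitin and 22.4 to 25.8 TPM in control.

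**Figure D3:**
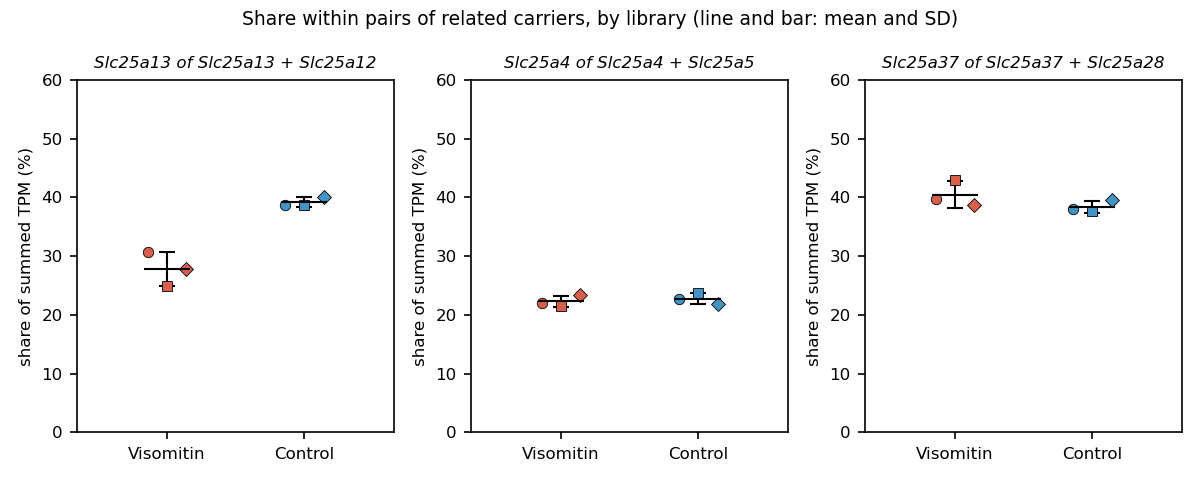
Share of the first gene in the summed TPM of a pair of related carriers, in percent, for each library, Visomitin left and control right, with mean and SD of 3 libraries. The Slc25a13 share is at 24.9% to 30.7% with Visomitin and 38.7% to 40.1% in control, while the shares of Slc25a4 and of Slc25a37 overlap between the groups.

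The remaining amino acid, glutathione and carnitine carriers did not pass. With Slc25a13 as the 1 that fell of 9 tested, 7 of the differences were below 0 and the median was -0.17. Among all genes tested 5.03% fell, 6550 of 11753 differences were below 0 and the median was -0.03. Slc25a38, which brings glycine into the matrix for heme synthesis, came closest, with 8.91, 11.6 and 10.8 TPM with Visomitin, against 14.2, 13.0 and 15.6 TPM in control. The highest Visomitin library lay below the lowest control (difference -0.42, SE 0.13, limma adjusted p = 0.096). Slc25a39, the glutathione importer, had 144, 176 and 185 TPM with Visomitin, against 187, 184 and 193 TPM in control, where Visomitin 3 lies just above control 2 (difference -0.17, 95% interval -0.40 to 0.07, limma adjusted p = 0.36). Its relative Slc25a40 was far scarcer, at 4.05, 3.03 and 3.14 TPM with Visomitin and 2.87, 2.64 and 2.81 TPM in control, with groups that do not overlap (difference 0.22, limma adjusted p = 0.42). Slc25a40 made up 1.67% to 2.73% of the sum of the pair with Visomitin and 1.41% to 1.52% in control (exact two-sided permutation p = 0.1, and 0.3 adjusted over the 6 pairs).

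Slc25a20, which carries acylcarnitines inward for fatty acid oxidation, had 31.1 to 34.2 TPM with Visomitin and 34.7 to 38.4 TPM in control, and its groups do not overlap (difference -0.14, limma adjusted p = 0.39). The groups overlapped for the others of this role. The glutamate carrier Slc25a22 had 17.6 to 23.3 TPM with Visomitin and 20.9 to 26.1 TPM in control, and its relative Slc25a18 stayed at or below 0.08 TPM. The branched-chain amino acid carrier Slc25a44 was at 14.6 to 19.7 TPM with Visomitin and 19.7 to 21.1 TPM in control. The ornithine carrier Slc25a15 was at 4.69 to 5.94 TPM with Visomitin and 5.37 to 6.30 TPM in control.

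The organic acid carriers outside the shuttle, Slc25a1 and Slc25a10, did not pass. Slc25a1, which exports citrate for lipid synthesis, had 51.2, 64.3 and 58.2 TPM with Visomitin, against 49.2, 49.5 and 52.9 TPM in control. Visomitin 1 lies within the control range and the other Visomitin libraries above it (difference 0.19, SE 0.10, limma adjusted p = 0.31). Slc25a10, the dicarboxylate carrier that exchanges malate or succinate for phosphate, had 59.6, 79.2 and 80.8 TPM with Visomitin, against 66.8, 66.6 and 69.2 TPM in control, so that the control libraries lie between Visomitin 1 and the other Visomitin libraries (difference 0.10, 95% interval -0.18 to 0.38). Without Visomitin 1 the difference of Slc25a10 was 0.24 (limma adjusted p = 0.061) and that of Slc25a1 was 0.27 (0.085). Without Visomitin 2 these differences were 0.04 (limma adjusted p = 0.91) and 0.11 (0.66), and without Visomitin 3 they were 0.03 (0.93) and 0.18 (0.42). Over all genes tested 420 rose without Visomitin 1, against 244 with all libraries.

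The mitoferrins Slc25a37 and Slc25a28, which import iron for heme and iron-sulfur clusters, were higher on average and did not pass. Slc25a37 had 17.4, 20.0 and 22.2 TPM with Visomitin, against 15.8, 14.7 and 17.6 TPM in control, and Visomitin 1 lies below control 3 (difference 0.29, SE 0.12, limma adjusted p = 0.20). Slc25a28 had 26.4, 26.4 and 35.1 TPM with Visomitin, against 25.8, 24.4 and 26.9 TPM in control, where only Visomitin 3 stands above all controls (difference 0.17, SE 0.13, limma adjusted p = 0.45). Slc25a37 held 38.7% to 43.1% of the sum of the mitoferrins with Visomitin and 37.7% to 39.6% in control, and erythroid markers, of a lineage known for high Slc25a37, summed to no more than 0.43 TPM in any library.

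The carriers of nucleotides and cofactors did not pass, in 9 of 9 cases, and 4 had a difference above 0 and 5 below (median -0.05). Slc25a42, a coenzyme A carrier, had 3.34, 4.21 and 3.15 TPM with Visomitin, against 5.14, 5.05 and 5.17 TPM in control; the controls are nearly equal and lie above all Visomitin libraries (difference -0.43, SE 0.14, limma adjusted p = 0.11). Slc25a32, which carries folate or flavin, was at 2.42 to 3.35 TPM with Visomitin and 3.36 to 4.45 TPM in control, groups that narrowly miss each other (difference -0.31, limma adjusted p = 0.30). Slc25a51, the importer of NAD, was the most abundant of this group, at 35.2 to 44.8 TPM with Visomitin and 39.6 to 44.5 TPM in control. The groups likewise overlapped for Slc25a17, the peroxisomal carrier of cofactors (33.3 to 40.1 TPM with Visomitin and 32.0 to 36.9 TPM in control) and for Slc25a26, the importer of S-adenosylmethionine (7.23 to 9.75 TPM with Visomitin and 8.16 to 9.89 TPM in control). An exon of Slc25a26 overlaps Lrig1 on the opposite strand, listed at no more than 2.95 TPM. Slc25a16, whose substrate is less settled, was at 5.87 to 6.70 TPM with Visomitin and 5.62 to 6.75 TPM in control.

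The pyrimidine nucleotide carriers Slc25a33 and Slc25a36 varied within groups. Slc25a33 had 4.94, 5.34 and 7.76 TPM in Visomitin 1, 2 and 3 and 4.57, 4.36 and 7.74 TPM in control 1, 2 and 3, so that the library numbered 3 was the highest in each group. Slc25a36 had 9.82, 10.2 and 9.89 TPM with Visomitin and 12.6, 10.01 and 6.77 TPM in control, close together with Visomitin and spread widely in control; its 1 near-identical copy was listed at no more than 0.21 TPM. Slc25a33 held 33.5% to 44.0% of the sum of the pair with Visomitin and 26.7% to 53.3% in control (exact two-sided permutation p = 1). Neither difference in level was larger than the spread between libraries (limma adjusted p = 0.80 for Slc25a33 and 0.88 for Slc25a36).

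Among members whose substrate is less settled, or that lie in the outer membrane, 1 of 5 tested fell, against 5.03% of all genes tested. Slc25a43 (ENSMUSG00000037636) had 7.55, 7.76 and 8.87 TPM in Visomitin 1, 2 and 3, against 12.7, 12.7 and 11.9 TPM in control 1, 2 and 3. The groups lie well apart, with means of 8.06 ± 0.71 TPM with Visomitin and 12.4 ± 0.47 TPM in control (SD, n = 3 each; difference -0.57, SE 0.11, limma adjusted p = 0.023). The call held without Visomitin 1 or Visomitin 3 and was missed without Visomitin 2 or any control library (adjusted p of 0.062 to 0.096). Slc25a45 had 51.3, 55.5 and 54.7 TPM with Visomitin, against 44.2, 48.9 and 39.8 TPM in control, every Visomitin library above every control (difference 0.28, SE 0.10, limma adjusted p = 0.13). Slc25a46, an outer membrane protein of mitochondrial shape, was at 7.79 to 8.60 TPM with Visomitin and 7.99 to 9.34 TPM in control. Slc25a35 was at 2.22 to 4.02 TPM with Visomitin and 2.50 to 3.36 TPM in control, and its exons overlap Rangrf on the opposite strand, listed at 7.79 to 10.4 TPM with Visomitin and 13.0 to 17.3 TPM in control. Slc25a53 was the least abundant member, and control 2 was its lowest library, at 0.62 TPM.

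Beside Slc25a47, 10 further genes of the family stayed below the limit. Slc25a41 and Slc25a54 were listed at 0 in all libraries, and Slc25a2, Slc25a18, Slc25a21, Slc25a31, Slc25a34 and Slc25a48 stayed at or below 0.13 TPM. Slc25a27, an uncoupling protein relative of the brain, reached 0.58 TPM in Visomitin 2, and Slc25a29, a carrier of basic amino acids, was at 0.31 to 0.48 TPM with Visomitin and 0.32 to 0.61 TPM in control.

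Of 27 other transport genes of the mitochondrial membranes tested, 1 rose, 3 fell and 23 did not pass, with a median difference of -0.11. The shares over all genes tested were 2.08% that rose and 5.03% that fell. Mpc2, a subunit of the mitochondrial pyruvate carrier, had 45.0, 45.2 and 44.7 TPM with Visomitin, against 60.2, 68.5 and 59.4 TPM in control, and fell (difference -0.47, SE 0.09, limma adjusted p = 0.020). Its partner subunit Mpc1 was at 78.8 to 96.9 TPM with Visomitin and 75.5 to 90.6 TPM in control and did not pass (difference 0.10, 95% interval -0.15 to 0.34). The transporter gene Abcb6 (-0.51, adjusted p = 0.030) and Letm1, for a cation exchanger of the inner membrane (-0.59, adjusted p = 0.039), also fell in limma. Mcub, an inhibitory subunit of the calcium uniporter, had 72.1, 88.9 and 81.9 TPM with Visomitin, against 62.1, 61.5 and 59.4 TPM in control, and rose (difference 0.40, SE 0.10, limma adjusted p = 0.046), while the pore gene Mcu was at 6.93 to 9.33 TPM with Visomitin and 7.96 to 9.28 TPM in control.

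Of 12 tested genes for the import of carriers through both membranes, 2 fell, 0 rose and 10 did not pass, with 11 of 12 differences below 0 and a median of -0.25; among all genes tested 5.03% fell and 6550 of 11753 differences were below 0. Tomm70a, for the outer membrane receptor that takes up carrier precursors, had 12.4, 13.6 and 15.0 TPM with Visomitin, against 20.0, 18.6 and 20.5 TPM in control (difference -0.50, SE 0.11, limma adjusted p = 0.034). Tomm40, for the import pore, had 53.1, 63.4 and 74.0 TPM with Visomitin, against 89.7, 87.4 and 108 TPM in control (difference -0.58, SE 0.14, limma adjusted p = 0.041). Timm22, for the insertase of the carriers, was at 17.1 to 25.8 TPM with Visomitin and 23.5 to 30.8 TPM in control and did not pass.

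Enzymes that work on either side of the carriers gave 1 that rose, 5 that fell and 18 that did not pass of 24 tested, with a median of -0.19. Among all genes tested 2.08% rose and 5.03% fell. Mdh2 (-0.95, adjusted p = 0.0020) and Mdh1 (-0.58, adjusted p = 0.0045) had the lowest p-values of those that fell in limma. Mdh1 and Mdh2 are the malate dehydrogenases of the same shuttle as Slc25a13, and the other enzymes that fell are not part of it. The aminotransferase genes of the shuttle, Got1 and Got2, were lower in every Visomitin library without passing. Among all genes tested 18.4% were lower without overlap of the groups. Got1 was at 46.6 to 52.3 TPM with Visomitin and 57.8 to 63.6 TPM in control. Got2 was at 113 to 144 TPM with Visomitin and 149 to 167 TPM in control. The shuttle carriers Slc25a12 (difference 0.02) and Slc25a11 (-0.05) did not pass, and a change of the shuttle as a whole was not tested. Mthfd2, for a folate enzyme of the matrix, was the 1 that rose (0.85, limma adjusted p = 0.0089), while the folate carrier Slc25a32 was not higher in any Visomitin library than in any control.

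**Figure D4:**
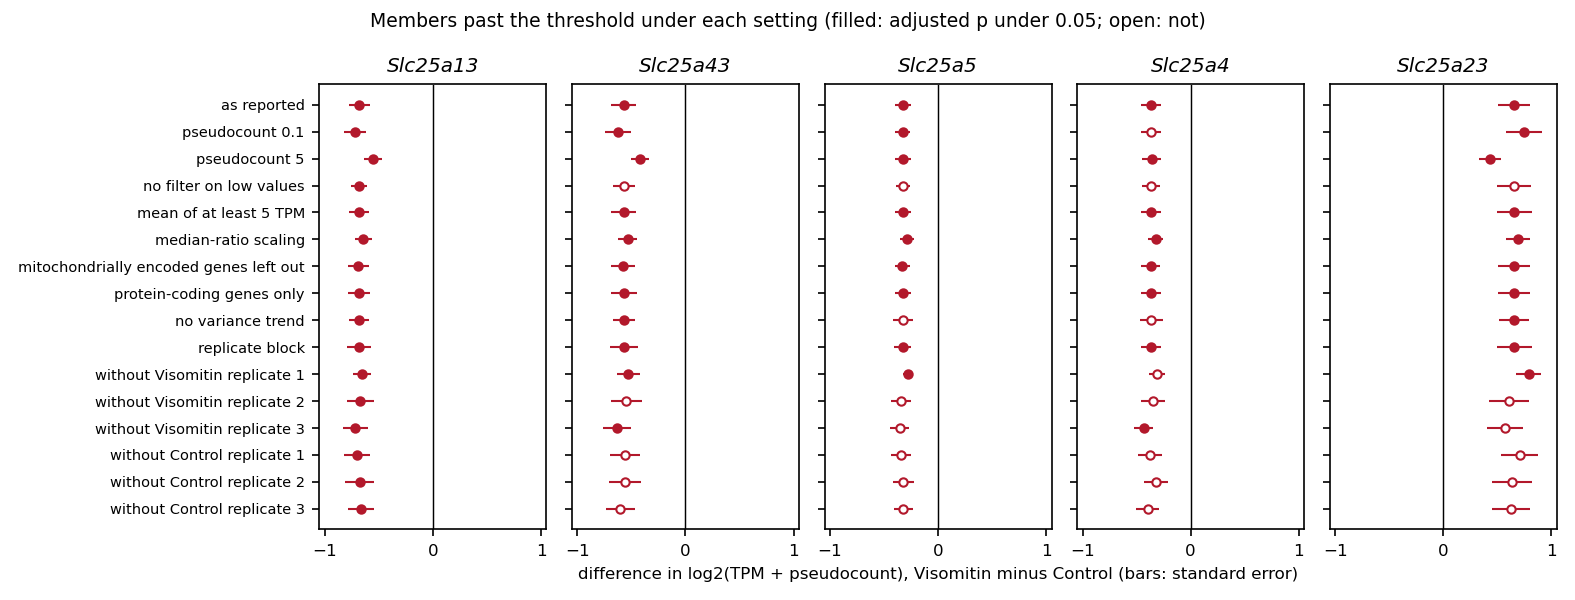
Difference in log2 values, Visomitin minus control, with its standard error, for the 5 members that passed, as reported and under each of 15 alternatives; filled points have a limma adjusted p under 0.05. Slc25a13 is filled throughout, and the other 4 keep their direction throughout and are open under several alternatives, among them most fits with a library left out.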

How the data were processed

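RNA was sequenced from 6 mouse libraries, 3 with Visomitin and 3 controls, prepared per the labels' protocols from DNase-treated total RNA as stranded mRNA libraries. The authors' deposited table holds TPM per Ensembl gene. The submitters' processing notes name fastp, HISAT2 and StringTie, without versions; the genome build, annotation and counting program were not given in the sources. TPM summed to 1000000 in each library and were used without rescaling, and depth is unknown.

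Symbols for 51884 of 57180 identifiers and gene types came from GENCODE M21. Genes reaching 1 TPM in 3 or more libraries (11753) were transformed to log2(TPM + 1) and fitted with limma 3.58.1 in R 4.3.3 (group as the only term, eBayes with a trend, two-sided, Benjamini-Hochberg adjustment over all genes tested, threshold 0.05). The code of the fit was tested on simulated data with equal spread in both groups, unlike these libraries, and no call rests on that test. Log2 ratios of 6 pairs of related carriers were compared by exact permutation of the group labels. By rule, members past the threshold, Ucp2, Slc25a3 and members averaging 50 TPM are given by library and the others by range, and from other lists up to 3 genes per direction with the lowest p-values are named; further members given by library and Mpc1, Mcu, Timm22, Got1 and Got2 were chosen after their values were seen. Members, lists and motifs were chosen with earlier results of these data known. A member and a gene of the other lists that the rule would name are counted but not reported here. Promoter windows are from RefSeq (GRCm38.p6).

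Alternatives, 15 in all, were pseudocounts of 0.1 and 5, no filter or a mean of 5 TPM, median-ratio scaling, leaving out mitochondrially encoded genes, protein-coding genes only, no variance trend, the library number as a block, and leaving out each library. No pair of libraries shared the same TPM value for more than 0.391% of genes tested.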

Additional observations from a re-analysis of the deposited data

How the results depend on the processing

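Of the 4 members that fell and the 1 that rose, none changed direction under any of the 15 alternatives, and Slc25a13 passed in all of them. The count that rose was 0 with no filter on low values, 2 after median-ratio scaling (Slc25a23 and Slc25a30) and 0 to 1 with a library left out. The count that fell was 1 with no filter, 2 without the variance trend and 1 to 3 with a library left out. Slc25a4 also missed the threshold with a pseudocount of 0.1 (adjusted p = 0.0503 in limma). A fit that leaves out a library rests on 5 samples, and the filter changes how many genes the adjustment covers (22323 without it); the cause of other changes was not tested. Over all genes tested, between 64 and 481 rose and between 244 and 799 fell over the alternatives. With the library number as a replicate block 1 rose and 4 fell; residual correlations of equally numbered libraries were 0.046, 0.02 and 0.173, so the numbers were not taken as pairs.

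Of the members described that did not pass, 11 changed sign in at least 1 alternative. The difference of Ucp2 was 0.0223 after median-ratio scaling, and that of Slc25a24 was -0.0016 without mitochondrially encoded genes. With a library left out the differences ran from -0.16 to 0.26 for Ucp2, -0.0367 to 0.0587 for Slc25a24, -0.1254 to 0.0259 for Slc25a11, -0.067 to 0.1476 for Slc25a12, -0.0526 to 0.061 for Slc25a16, -0.1177 to 0.0793 for Slc25a26, -0.0584 to 0.3387 for Slc25a33, -0.0432 to 0.2771 for Slc25a35, -0.16 to 0.25 for Slc25a36, -0.10 to 0.0027 for Slc25a46 and -0.31 to 0.41 for Slc25a53. A minimum mean of 5 TPM left 32 members to test. TPM keep no depth, so no limit from counting can be given for the 14 members under 10 TPM.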
